A study of Mus musculus with 6 samples.

Results

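The genes described here are the mouse zinc finger genes whose symbols begin with Zbtb (the BTB group) or with Zscan or Zkscan (the SCAN group), each followed by a number. Members were found by matching the transcript accession of every probe to a RefSeq symbol. The rule took 109 probes of 68 genes, out of 56605 probes on the array and 22911 named genes. The BTB group held 67 probes of 42 genes and the SCAN group 42 probes of 26 genes. RefSeq lists 74 such symbols, and the 6 without a probe were Zscan30, Zscan4d, Zscan4e and the pseudogenes Zscan4-ps1, Zscan4-ps2 and Zscan4-ps3. Zbtb8os and Zbtb11os1 match the rule by name only: the first is a neighbour of Zbtb8a named as its opposite strand gene, and the second is a noncoding RNA.

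RNA came from C8D1A, a cloned mouse astrocyte line, on 6 one-colour Agilent arrays. On 3 arrays the cells were untreated (control), and on the other 3 they had received pulsed radiofrequency (PRF), short bursts of high-frequency current used in the clinic against neuropathic pain. All cells were kept for 6 days in DMEM with 10% fetal bovine serum and then for 24 h without serum, and RNA with an integrity number of at least 9.5 was used. The arrays stand for 3 independent experiments on a single cloned line. The sources used here give neither the settings and duration of the PRF nor the time to RNA extraction.

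Both groups are transcription factors that bind DNA through C2H2 zinc fingers and differ in the domain at the other end of the protein. The BTB domain forms dimers and recruits corepressors such as NCoR and BCOR, and many BTB factors act as repressors in cell fate and cell cycle control, among them Zbtb20 in the making of astrocytes. The SCAN domain forms dimers with other SCAN proteins. Most Zkscan genes encode a KRAB domain as well, which in many zinc finger proteins recruits the corepressor Trim28, and many SCAN genes lie in clusters of neighbouring zinc finger genes.

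Levels are given as log2 of the background-corrected signal minus the 75th percentile of the same array, so 0 is the 75th percentile and 1 unit is a doubling. A probe was tested where the scanner software marked it as well above background throughout one group or both. The tested probe with the highest mean over all 6 arrays stood for its gene. Changes are PRF minus control from limma, and a gene was called at a Benjamini-Hochberg adjusted p under 0.05 over all 34838 tested probes. Of the 68 members, 60 were tested: 40 BTB genes, each well above background on all 6 arrays, and 20 SCAN genes, of which 17 were above it on all 6. The 8 that were not tested were Zbtb16, Zbtb8b, Zkscan7, Zkscan16, Zscan18, Zscan4a, Zscan4c and Zscan4f.

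The 6 arrays lay on 1 slide with 1 scan, and their 75th percentiles of signal were 597 to 674 in control and 544 to 634 in PRF. The share of probes well above background was 59.5% to 61.2% in control and 62.1% to 63.9% in PRF. The arrays filled both rows of the slide unevenly, with 2 controls in row 1 and 1 in row 2 and the reverse for PRF. Of the 11 astrocyte markers, 9 were tested and no array had Slc1a3 or Gja1 well above background. Of these 9, only the glutamine synthetase gene Glul was called (higher). All 7 oligodendrocyte markers were well above background on all arrays. The myelin gene Mbp was called higher, and Mog and Sox10 lower. Their summed signal, in units of each array's 75th percentile, ran from 166 to 171 in control and from 149 to 163 in PRF. Of 7 microglia and macrophage markers, no array had Aif1, Cx3cr1, Ptprc or P2ry12 well above background, and the summed signal ran from 8.88 to 9.28 in control and from 13.2 to 17.9 in PRF. The integrin gene Itgam was called higher (0.86, limma adjusted p = 0.00406), while Csf1r (0.16) and Tmem119 (-0.25) were not called. Of 6 neuron markers, 3 were tested and no array had Rbfox3 or Stmn2 well above background. The neuron sum ran from 22.7 to 25.6 in control and from 23.8 to 28.3 in PRF, and Snap25 was called higher (0.97, limma adjusted p = 0.0127). Of 7 fibroblast and endothelial markers, no array had Cdh5 well above background, and the sum ran from 2.89 to 3.17 in control and 2.57 to 2.94 in PRF. Of these the collagen genes Col1a2 (2.72, with 1 control array well above background) and Col1a1 (0.44) were called higher and Pdgfrb (-0.32) lower. The part of these markers in the results below was not tested.

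After PRF, 9 of the 40 tested BTB genes were higher and 8 were lower by limma's adjusted p. Among the SCAN genes falls outnumbered rises: 4 of 20 were higher and 9 were lower. One of these rises, Zscan5b, passed the filter through the PRF arrays alone, and 1 of the falls, Zkscan4, through the control arrays. Another rise, Zscan29, rests on the choice between probes that were called in opposite directions. Over all 15069 tested genes 16.3% were called higher and 13.5% lower (29.8% in either direction), while the BTB genes had 22.5% higher and 20% lower, and the SCAN genes 20% higher and 45% lower. The median log2 change was -0.14 for the BTB genes and -0.27 for the SCAN genes, beside -0.0059 for all tested genes. By probe, 18 of the 92 tested member probes were higher and 25 lower, where 31.1% of all tested probes were called (18.4% higher, 12.7% lower). By fitted change, called genes of at least 2-fold were 1 BTB gene, Zbtb32 (higher), and the SCAN genes Zkscan5 and Zscan5b (higher) and Zkscan4 (lower), where 8.06% of all tested genes were higher and 0.518% lower. Zscan5b is a bound of at least 1.83-fold, since no control array measured it. At an unadjusted p under 0.05 with at least a 1.5-fold change, 5 BTB genes were higher and 2 lower, and 3 SCAN genes each way, where 12.1% of all tested genes were higher and 3.46% lower. In RNA from a whole culture, fewer cells that express a gene and less RNA per cell cannot be told apart. Values without scaling between arrays shifted the median of all genes to -0.147. The split then became 5 higher and 11 lower in the BTB group and 3 and 11 in the SCAN group, with 1635 and 3069 over all genes. On the median scale all genes split into 2212 higher and 2776 lower, and after quantile normalization into 2112 and 2878. On those scales the BTB genes split into 9 and 10, and 8 and 10. The SCAN genes had more falls than rises under each of these scalings.

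**Figure D1:**
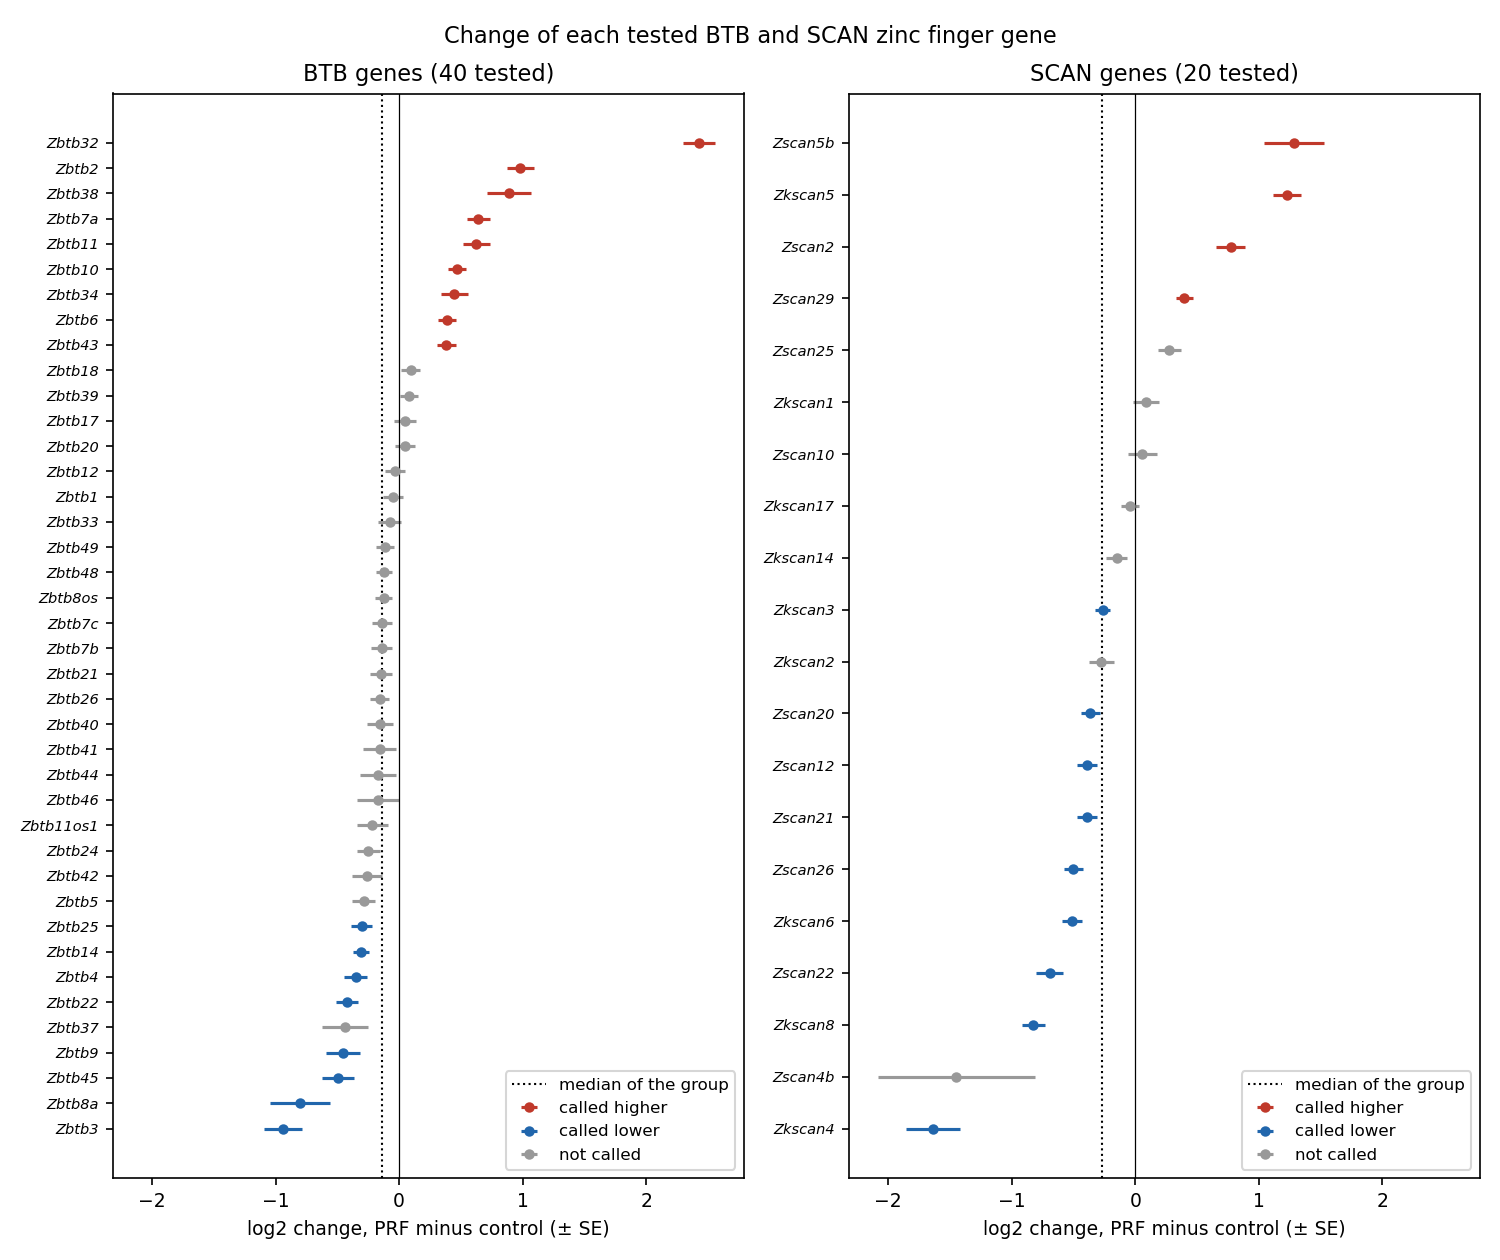
Log2 change from control to PRF (x axis, ± SE) of each tested BTB gene (left, 40 genes) and SCAN gene (right, 20 genes), one gene per line, with the group's median as a dotted line. Zbtb32 stands farthest to the right at 2.43, and most SCAN genes lie left of 0 around a median of -0.27.

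With the row of the slide as a block, limma called 8 BTB genes higher and 5 lower, and 4 SCAN genes higher and 9 lower. The BTB genes called lower with the block included a gene that was not called without it. Of all 15069 tested genes limma then called 2131 higher and 1351 lower (23.1%), beside 2455 and 2030 (29.8%) without the block. Zbtb34 (adjusted p = 0.0555), Zbtb45 (0.0642), Zbtb4 (0.0657), Zbtb25 (0.0713) and Zbtb8a (0.107) lost their calls in that fit. So did Sin3a (0.0534), Ctsd (0.0614), Cdkn2c (0.0674) and Hdac7 (0.0678), which are described further on. A fit within a row has a single array in one of its groups, which is assumed to vary like the other group. Within row 1 (2 controls, 1 PRF) it called 2 and 1 BTB genes and 2 and 1 SCAN genes, where 8.47% of all genes were called. Within row 2 (1 control, 2 PRF) it called none in either group, where 0.531% of all genes were called; at an unadjusted p under 0.05, 4 BTB and 8 SCAN genes passed there, where 16.3% of all tested genes did.

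Zbtb32, a repressor first described in T cells that binds GATA factors and restrains cytokine genes, had the largest rise of the BTB group. Its levels were -3.37, -3.26 and -3.41 in control and -0.97, -0.66 and -1.13 after PRF. Each PRF array was far above each control array, and the spread within either group was small beside the gap. The change was 2.43 ± 0.13 (SE, n = 3 against 3), 5.37-fold, with limma's adjusted p = 0.000119.

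Zbtb2, a repressor of genes of the p53 pathway, had control levels of 2.23, 2.23 and 1.96 and PRF levels of 3.17, 3.22 and 2.96. The groups did not overlap, and replicate 3 was the lowest array of each. The rise was 0.98 ± 0.11 (SE), 1.97-fold (limma adjusted p = 0.00151). A second probe gave 1.02 ± 0.13 (adjusted p = 0.00216), and the last, well above background on 1 control array and all 3 PRF arrays, gave 0.68 ± 0.34 and was not called (adjusted p = 0.178).

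Zbtb38, which binds methylated CpG sites, read -0.15, -0.10 and -0.56 in control and 0.92, 0.42 and 0.51 after PRF. Control 3 was low and PRF 1 high within their groups, which did not overlap. The rise was 0.89 ± 0.18, 1.85-fold (limma adjusted p = 0.0125), and the other probe gave 0.87 ± 0.09 (adjusted p = 0.000953). Zbtb4, another reader of methylated CpG, moved the other way, with control levels of -0.02, 0.12 and 0.18 and PRF levels of -0.39, -0.24 and -0.15. Every PRF array of Zbtb4 lay below every control array, by less than the spread within a group, and the change was -0.35 ± 0.09 (adjusted p = 0.0296), while its second probe missed the threshold (adjusted p = 0.0573). Without control 2, control 3, PRF 1 or PRF 2 the call of Zbtb4 was lost, with adjusted p = 0.0784 to 0.0906. Kaiso, the methyl-CpG reader encoded by Zbtb33, had overlapping groups on its brighter probe and a change of -0.07 ± 0.09 (adjusted p = 0.576). On its dimmer probe every PRF array was above every control array, but the change of 0.25 ± 0.10 was not called (limma adjusted p = 0.0948).

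Zbtb7a, the repressor also called LRF, read 1.15, 1.08 and 1.0 in control and 1.81, 1.80 and 1.55 after PRF. All PRF arrays were above all controls. The rise was 0.64 ± 0.10, 1.56-fold (limma adjusted p = 0.00434). Its dimmer probe was not called (0.34 ± 0.24, adjusted p = 0.335) and varied more within each group, and the mean of both probes missed the threshold (adjusted p = 0.0618). The related Zbtb7b, or ThPOK, which directs T cells to the helper fate, overlapped between groups (-0.14 ± 0.09, adjusted p = 0.264).

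Zbtb11, a transcription factor needed for neutrophil development in fish, read 2.51, 2.54 and 2.34 in control and 3.13, 3.23 and 2.90 after PRF. The groups were apart, with replicate 3 again the lowest of each. It rose by 0.62 ± 0.11 (adjusted p = 0.00747) and by 0.89 ± 0.12 on its second probe (adjusted p = 0.00292). The noncoding neighbour Zbtb11os1 was not called (-0.22 ± 0.13, adjusted p = 0.23).

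The other BTB rises were smaller. Zbtb10, a repressor of Sp family genes, rose by 0.47 ± 0.07, and Zbtb6 by 0.39 ± 0.08. The dimmer probe of Zbtb6 gave 0.26 ± 0.10 and was not called (limma adjusted p = 0.0888). Zbtb34 and Zbtb43, which are adjacent protein-coding genes on chromosome 2, rose by 0.45 ± 0.11 and 0.38 ± 0.08. All 3 probes of Zbtb43 were called higher, with changes of 0.38, 0.41 and 0.50. The adjusted p-values of these 4 genes in limma ran from 0.00461 (Zbtb10) to 0.0235 (Zbtb34). Zbtb34 missed the threshold when any array except control 2 was left out (adjusted p = 0.0508 to 0.0766), whereas the other 8 rises were called without each array in turn. Without scaling between arrays, Zbtb10 (adjusted p = 0.0743), Zbtb34 (0.0925), Zbtb6 (0.124) and Zbtb43 (0.158) were not called, and after quantile normalization Zbtb34 was not (0.192).

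Zbtb3 had the largest fall of the BTB group. Its control levels were 1.04, 1.02 and 1.16 and its PRF levels -0.14, 0.07 and 0.47. Control arrays were close together, and PRF arrays were spread below them without overlap. The fall was 0.94 on the log2 scale (SE 0.16), 1.92-fold, with limma's adjusted p = 0.00624, and it was called without each array in turn.

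Zbtb45, a regulator of glial differentiation, read 1.39, 1.39 and 1.61 in control and 0.83, 0.87 and 1.22 after PRF. Replicate 3 was the highest array of both groups, and the groups did not overlap. The change was -0.49 ± 0.13 (limma adjusted p = 0.0291), with 0.0589 to 0.0939 when control 1, 2 or 3 or PRF 1 or 2 was left out. Zbtb20, which drives astrocyte formation from progenitors, read 3.97, 4.12 and 3.96 in control and 3.98, 4.14 and 4.07 after PRF. These values overlapped fully (0.05 ± 0.08, adjusted p = 0.694).

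Zbtb8a read -1.69, -1.84 and -1.44 in control and -2.89, -2.54 and -1.94 after PRF. PRF 3 stood nearest to the controls. Its change of -0.80 ± 0.24 was just inside the threshold (limma adjusted p = 0.0499) and outside it without control 1, 2 or 3 or PRF 1 or 2 (0.0834 to 0.142). Zbtb9 (-0.46 ± 0.14), Zbtb22 (-0.42 ± 0.09), Zbtb14 (-0.31 ± 0.07) and Zbtb25 (-0.30 ± 0.08) were the other called falls. The dimmer probes of Zbtb14 (-0.25 ± 0.12, limma adjusted p = 0.161) and Zbtb25 (-0.15 ± 0.14, 0.458) had overlapping groups and were not called. Zbtb14, also known as ZF5, was described as a repressor of the Myc promoter. On the probes that stood for the genes, all 8 falls had PRF arrays below every control array. The same held for 13 BTB genes in all and for 25.6% of all tested genes. Groups were apart upwards in 9 BTB genes, where 25.5% of all tested genes were (51.1% in either direction).

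The count of BTB falls depended on single arrays. It was 3 without control 1, 2 without control 2, 2 without control 3, 3 without PRF 1, 1 without PRF 2 and 9 without PRF 3, while falls over the whole array ran from 2427 to 4429 probes, beside 4418 with all arrays. Zbtb3 was the only BTB fall called in every one of these 6 fits. Zbtb9 and Zbtb25 lost their calls when any array other than PRF 3 was left out, Zbtb22 without control 1, control 3 or PRF 2, and Zbtb14 without control 2 or PRF 2.

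**Figure D2:**
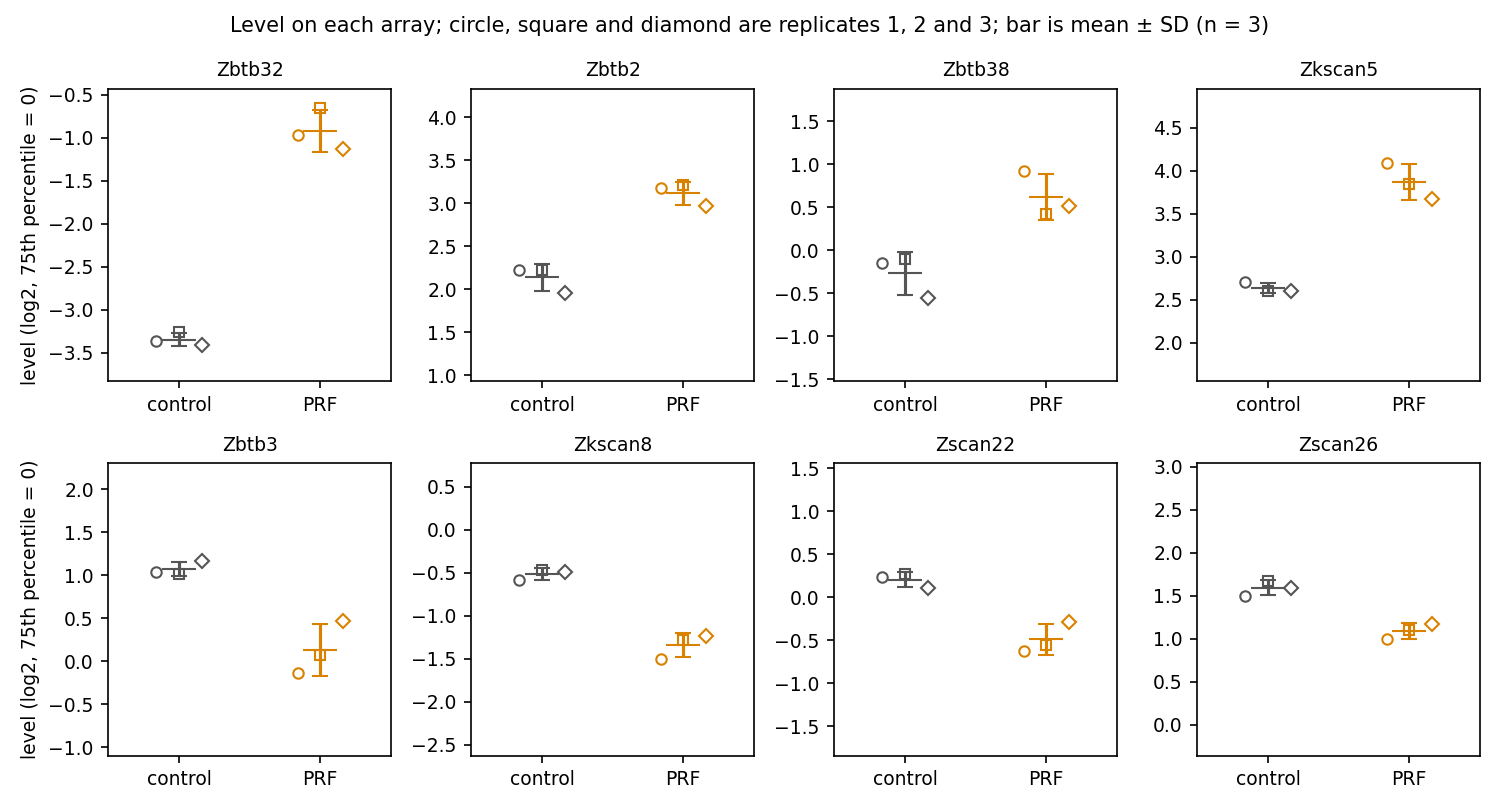
Level on each array (y axis, log2 signal with the array's 75th percentile at 0; each panel spans the same number of log2 units) for 4 genes that rose and 4 that fell, with points for the 3 control and 3 PRF arrays and bars for the mean ± SD. In none of the 8 panels do the groups overlap, and the gap is widest for Zbtb32.

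Other BTB factors with well studied roles were not called. Zbtb17, or Miz-1, the partner through which Myc represses cell cycle inhibitors, read 2.15, 2.12 and 2.31 in control and 2.10, 2.28 and 2.33 after PRF, with full overlap. Zbtb18, a repressor in cortical neuron development, changed by 0.09 ± 0.08 (adjusted p = 0.398). Zbtb1, which lymphocytes require, gave -0.05 ± 0.08, Zbtb46, a marker of dendritic cells, -0.17 ± 0.17, and Zbtb48, which binds telomeres, -0.12 ± 0.06. Zbtb5, a repressor of Cdkn1a, had 2 probes with PRF below control on every array. The brighter probe missed the threshold (-0.29 ± 0.09, adjusted p = 0.0612), and the other, for a different transcript, passed it (-0.48 ± 0.11, adjusted p = 0.0187). Zbtb49 likewise had a brighter probe that was not called (-0.11 ± 0.07) and a dimmer one that was (-0.34 ± 0.10, adjusted p = 0.0482); it was singled out after its values were seen. Zbtb16, or PLZF, was well above background on 1 control array and no PRF array. No array had Zbtb8b well above background.

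Zkscan5 had the largest rise among SCAN genes measured in both groups. Its levels were 2.70, 2.60 and 2.61 in control and 4.09, 3.85 and 3.67 after PRF. All PRF arrays lay about a log2 unit or more above the controls. The rise was 1.23 ± 0.11, 2.35-fold (limma adjusted p = 0.000765). Zscan2 read -3.85, -3.63 and -3.45 in control and -2.92, -2.93 and -2.76 after PRF. Its groups were apart, and it rose by 0.77 ± 0.12 (adjusted p = 0.00453). Zscan5b read -6.17, -6.18 and -6.21 in control, where no array was well above background, and -4.31, -5.22 and -5.17 after PRF, where all 3 were. It entered the test only through the PRF group, so its rise is a bound: at least 1.83-fold, set against the lowest signal well above background on each control array (limma adjusted p = 0.01). For the same reason its adjusted p is not independent of the filter.

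Falls in the SCAN group were led by Zkscan4. Its levels were -3.78, -3.30 and -3.47 in control and -5.53, -5.17 and -4.75 after PRF, with 2 of the 3 PRF arrays well above background, so that it passed the filter through the control group. The groups were apart by about a log2 unit. The fall was 1.63 on the log2 scale (SE 0.22), 3.1-fold, with limma's adjusted p = 0.00287. Since the control group alone carried Zkscan4 through the filter, this adjusted p is not independent of the filter.

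Zkscan8 read -0.59, -0.46 and -0.49 in control and -1.50, -1.28 and -1.24 after PRF. Both groups were tight and well apart. The fall was 0.82 on the log2 scale (SE 0.09), 1.77-fold (adjusted p = 0.0014), and a second probe for another transcript gave -1.0 ± 0.29 (adjusted p = 0.044). That second probe was well above background on 1 PRF array and on all control arrays, so it passed the filter through the control group. Zscan22 read 0.23, 0.27 and 0.11 in control and -0.62, -0.56 and -0.29 after PRF. The PRF arrays were all lower, PRF 3 least so. Its probes gave -0.69 ± 0.11 (adjusted p = 0.00482) and -0.88 ± 0.11 (adjusted p = 0.00263).

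Zscan26 read 1.5, 1.68 and 1.59 in control and 0.99, 1.10 and 1.17 after PRF, without overlap (-0.50 ± 0.08, limma adjusted p = 0.00574). Zkscan6 gave -0.51 ± 0.08 (adjusted p = 0.00559), and its second probe was also called lower. Zscan12 gave -0.39 ± 0.08 (adjusted p = 0.0123), again on both tested probes. Zscan21, or Zipro1, linked to the growth of cerebellar granule cell precursors, read 3.65, 3.66 and 3.67 in control and 3.20, 3.18 and 3.42 after PRF. The controls were nearly equal and every PRF array was lower (-0.39 ± 0.08, adjusted p = 0.0148). Zscan20 fell by 0.36 (SE 0.08, adjusted p = 0.0156).

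Zkscan3, a repressor of autophagy and lysosome genes, read 0.83, 0.91 and 0.87 in control and 0.59, 0.61 and 0.62 after PRF. The gap between the groups was wider than the spread within either. The fall was 0.26 on the log2 scale (SE 0.06, limma adjusted p = 0.019), and 2 dimmer probes were not called. Without control 2, control 3, PRF 1 or PRF 2 the adjusted p of Zkscan3 was 0.0541 to 0.0701. Zscan20 missed the threshold without control 1, control 2 or PRF 2 (0.0531 to 0.0588) and Zscan21 without control 2 or PRF 2 (0.0509 and 0.0552). The other 6 SCAN falls and all 4 rises were called without each array in turn. The count of SCAN falls ran from 6 (without control 2 or PRF 2, a drop of 1.5 times) to 12 (without control 3, where 3 more Zscan4 genes entered the test).

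The groups of arrays were apart downwards in 11 and upwards in 5 of the 20 tested SCAN genes, where 25.6% and 25.5% of all tested genes were. The 7 that were not called included Zkscan17, or Nizp1, a partner of the histone methyltransferase NSD1 (-0.04 ± 0.07), and Zscan10, a factor of pluripotent cells (0.06 ± 0.12). Zkscan14 gave -0.15 ± 0.08, Zkscan2 -0.27 ± 0.10 and Zscan25 0.27 ± 0.09, the last with adjusted p = 0.068. Restricting the SCAN group to the 17 genes that no array left at background gave 3 rises and 8 falls. Under that filter 1837 of all 14050 tested genes were higher and 2084 lower. By name, the main fit over 15069 genes had 4 of 9 tested Zkscan genes lower and 1 higher. Of 11 tested Zscan genes, 5 were lower there and 3 higher. In that main fit 13.5% of all tested genes were lower and 16.3% higher.

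Among the SCAN falls, 5 were genes of a single cluster on chromosome 13. In RefSeq order the cluster reads Zscan12, Zkscan3, Pgbd1, Zscan26, Nkapl, Zkscan4 and Zkscan8, which makes 7 protein-coding genes. All 5 SCAN members in it fell, by 0.39, 0.26, 0.50, 1.63 and 0.82 on the log2 scale in that order. Of the genes between them, Nkapl fell by 1.19 (SE 0.15, limma adjusted p = 0.00204), and Pgbd1 gave 0.79 ± 0.25 and was not called (adjusted p = 0.0536). Membership went by symbol, and whether Nkapl or Pgbd1 encodes a SCAN domain was not examined.

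**Figure D3:**
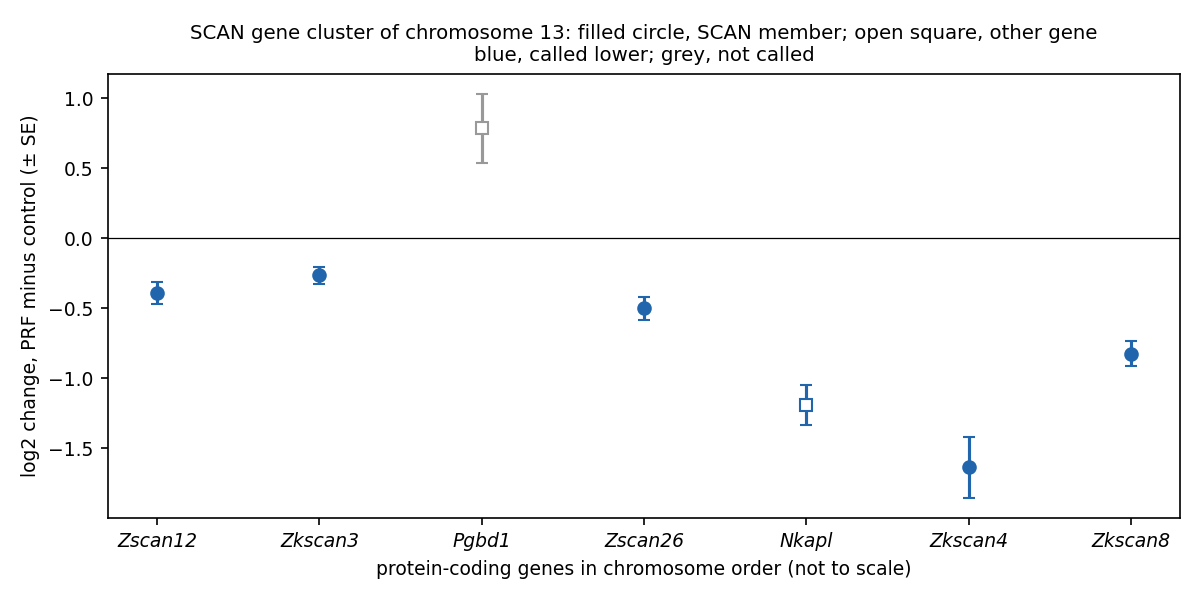
Log2 change from control to PRF (y axis, ± SE) of the 7 protein-coding genes of the chromosome 13 cluster in their order along the chromosome (x axis, not to scale). The 5 SCAN members (filled circles) all lie below 0, between -0.26 for Zkscan3 and -1.63 for Zkscan4, while Pgbd1 lies above 0 at 0.79.

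The promoters of SCAN members of the cluster, and of 3 BTB genes that rose, are shown for their letters around the start site. Each window is the RefSeq promoter of GRCm38.p6, from 250 bases before to 50 after the gene's start, in the direction of transcription. Such windows were given for 56 of the 68 members (74 windows), and among the SCAN members of the cluster Zkscan3 had none. Nkapl, which also fell, is not a member and its promoter is not shown. Capitals mark matches, on either strand, to a GC box (GGGCGG), a cAMP response element (TGACGTCA), an AP-1 site (TGANTCA), a heat shock element pair (GAANNTTC) or an E-box (CACGTG), and no match of one motif overlapped another in the windows shown. Zscan12 lies at chr13:21362570-21362869 (plus strand), Zscan26 at chr13:21453678-21453977 (minus strand), Zkscan4 at chr13:21478599-21478898 (plus strand) and Zkscan8 at chr13:21531065-21531364 (minus strand).
Zscan12: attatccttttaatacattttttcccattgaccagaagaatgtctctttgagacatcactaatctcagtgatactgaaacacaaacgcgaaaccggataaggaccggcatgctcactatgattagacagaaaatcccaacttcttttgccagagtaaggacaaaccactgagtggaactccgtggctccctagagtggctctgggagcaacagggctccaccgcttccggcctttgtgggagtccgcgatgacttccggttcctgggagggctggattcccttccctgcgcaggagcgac
Zscan26: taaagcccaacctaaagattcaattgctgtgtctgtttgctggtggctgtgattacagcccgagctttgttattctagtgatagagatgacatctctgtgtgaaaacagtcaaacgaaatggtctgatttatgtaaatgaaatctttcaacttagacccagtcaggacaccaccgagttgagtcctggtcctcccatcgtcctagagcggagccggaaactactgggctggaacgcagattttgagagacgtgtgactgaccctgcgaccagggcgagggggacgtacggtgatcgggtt
Zkscan4: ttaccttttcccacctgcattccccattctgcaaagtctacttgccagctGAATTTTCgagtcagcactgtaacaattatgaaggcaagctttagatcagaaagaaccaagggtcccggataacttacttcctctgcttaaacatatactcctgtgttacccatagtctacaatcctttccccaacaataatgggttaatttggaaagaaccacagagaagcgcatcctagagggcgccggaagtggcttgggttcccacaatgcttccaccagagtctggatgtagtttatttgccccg
Zkscan8: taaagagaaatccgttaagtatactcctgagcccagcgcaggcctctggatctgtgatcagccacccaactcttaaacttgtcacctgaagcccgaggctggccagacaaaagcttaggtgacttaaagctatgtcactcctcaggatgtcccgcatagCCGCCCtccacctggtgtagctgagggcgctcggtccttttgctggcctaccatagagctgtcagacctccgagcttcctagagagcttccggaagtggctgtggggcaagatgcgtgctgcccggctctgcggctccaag
Of these 4 falling neighbours, Zkscan8 held a GC box and Zkscan4 a heat shock element, and Zscan12 and Zscan26 held none of the 5 motifs.

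For the rises, the windows are Zbtb32 at chr7:30598860-30599159 (minus strand), the first of its 2 windows, Zbtb2 at chr10:4388059-4388358 (minus strand) and Zbtb11 at chr16:55973554-55973853 (plus strand).
Zbtb32: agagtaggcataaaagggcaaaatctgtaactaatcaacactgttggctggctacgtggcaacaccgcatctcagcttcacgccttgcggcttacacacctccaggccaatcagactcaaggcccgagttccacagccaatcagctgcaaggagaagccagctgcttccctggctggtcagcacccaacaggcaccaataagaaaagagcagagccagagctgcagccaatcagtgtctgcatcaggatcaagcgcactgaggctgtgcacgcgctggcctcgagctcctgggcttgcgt
Zbtb2: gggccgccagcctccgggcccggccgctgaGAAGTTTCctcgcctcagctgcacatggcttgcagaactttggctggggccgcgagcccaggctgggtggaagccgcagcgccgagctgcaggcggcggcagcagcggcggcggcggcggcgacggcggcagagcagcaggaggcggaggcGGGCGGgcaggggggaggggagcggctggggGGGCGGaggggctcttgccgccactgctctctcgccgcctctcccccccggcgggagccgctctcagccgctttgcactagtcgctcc
Zbtb11: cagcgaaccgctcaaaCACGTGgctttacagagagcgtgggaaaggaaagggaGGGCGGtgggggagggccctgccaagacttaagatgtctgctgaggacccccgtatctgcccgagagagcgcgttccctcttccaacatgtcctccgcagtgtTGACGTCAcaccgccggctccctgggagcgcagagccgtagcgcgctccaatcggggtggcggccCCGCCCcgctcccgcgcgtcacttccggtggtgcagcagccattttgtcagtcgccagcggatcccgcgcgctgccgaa
Zbtb32 held none of the motifs in this window. Zbtb2 held 2 GC boxes and a heat shock element, and Zbtb11 held 2 GC boxes, a cAMP response element and an E-box.

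Over all promoter windows the GC box was found in 35.7%, the cAMP response element in 1.79%, the AP-1 site in 7.81%, the heat shock element in 7.86% and the E-box in 7.15%. Over the members' windows these shares were 55.4%, 5.41%, 5.41%, 2.7% and 12.2%. The GC box was in 9 of 14 windows of members called higher and in 11 of 21 of members called lower. The heat shock element was in the windows of Zbtb2 and Zkscan4 only, a member that rose and one that fell. The cAMP response element was found in Zbtb11, Zbtb21, Zscan18 and Zscan20. A match describes the letters of the window and is no evidence of binding.

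Probes of a gene did not always move together. Zscan29 is the clearest case, since its tested probes were called in opposite directions. The brighter one, for NM_001290819, read -0.09, 0.04 and -0.10 in control and 0.35, 0.38 and 0.31 after PRF. Every PRF array was higher on it (0.40 ± 0.07, limma adjusted p = 0.00715). The other, for NM_001290820, read 0.24, 0.35 and 0.22 in control and -0.37, -0.59 and -0.31 after PRF. Every PRF array was lower on it (-0.69 ± 0.09, adjusted p = 0.00297). The first probe stood for the gene by its mean over all 6 arrays, although in control alone the second was brighter (mean 0.27 against -0.05). The direction given for the gene therefore rests on the choice of probe, and the mean of both probes changed by -0.15 and was not called (adjusted p = 0.124). Without scaling the brighter probe was not called either (adjusted p = 0.132).

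Zkscan1 had a brighter probe at 3.99, 3.73 and 3.77 in control and 4.09, 3.82 and 3.85 after PRF. These groups overlapped (0.09 ± 0.11, adjusted p = 0.577). Its other probe read 2.48, 2.54 and 2.60 in control and 1.91, 2.09 and 2.24 after PRF. There every PRF array was lower (-0.46 ± 0.10, limma adjusted p = 0.0158), and the mean of both probes was called lower (-0.19, adjusted p = 0.0463).

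**Figure D4:**
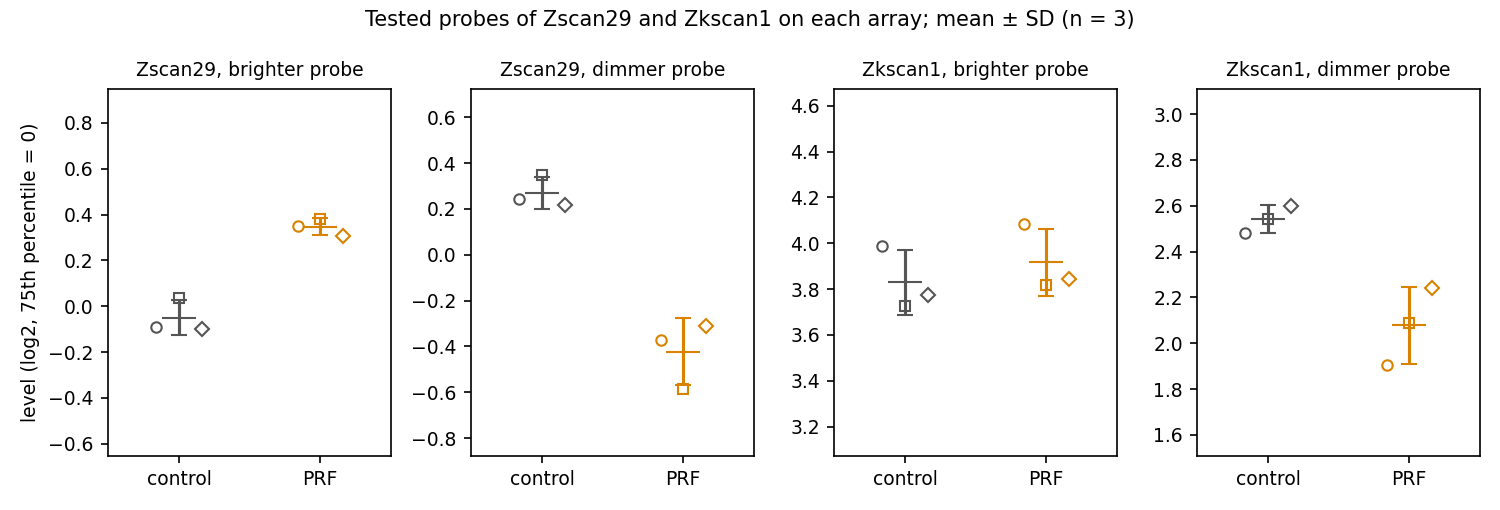
Level on each array (y axis, log2 signal with the array's 75th percentile at 0) for both tested probes of Zscan29 and of Zkscan1, with points for the 3 control and 3 PRF arrays and bars for the mean ± SD. The probes of Zscan29 move in opposite directions, by 0.40 and -0.69, and only the dimmer probe of Zkscan1 separates the groups.

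The Zscan4 genes are near-identical copies on chromosome 7, expressed in 2-cell embryos and in a small share of embryonic stem cells, where they act on telomeres. Their probes may share signal. Zscan4b was the copy that passed the filter. Its levels were -3.00, -3.84 and -5.59 in control and -5.72, -5.92 and -5.13 after PRF. Controls 1 and 2 were high, and control 3 lay among the PRF arrays. The change was -1.45 ± 0.64 and was not called (limma adjusted p = 0.134).

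Zscan4f read -3.14, -3.26 and -5.95 in control and -6.09, -5.21 and -4.49 after PRF, and was well above background on 2 arrays of each group. Zscan4c read -4.48, -4.60 and -7.16 in control and -6.54, -6.40 and -6.83 after PRF. Zscan4a read -4.20, -4.79 and -7.02 in control and -5.79, -6.82 and -6.42 after PRF. Both Zscan4c and Zscan4a were well above background on controls 1 and 2 and on no other array, so the 4 copies shared the same pair of high arrays.

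**Figure D5:**
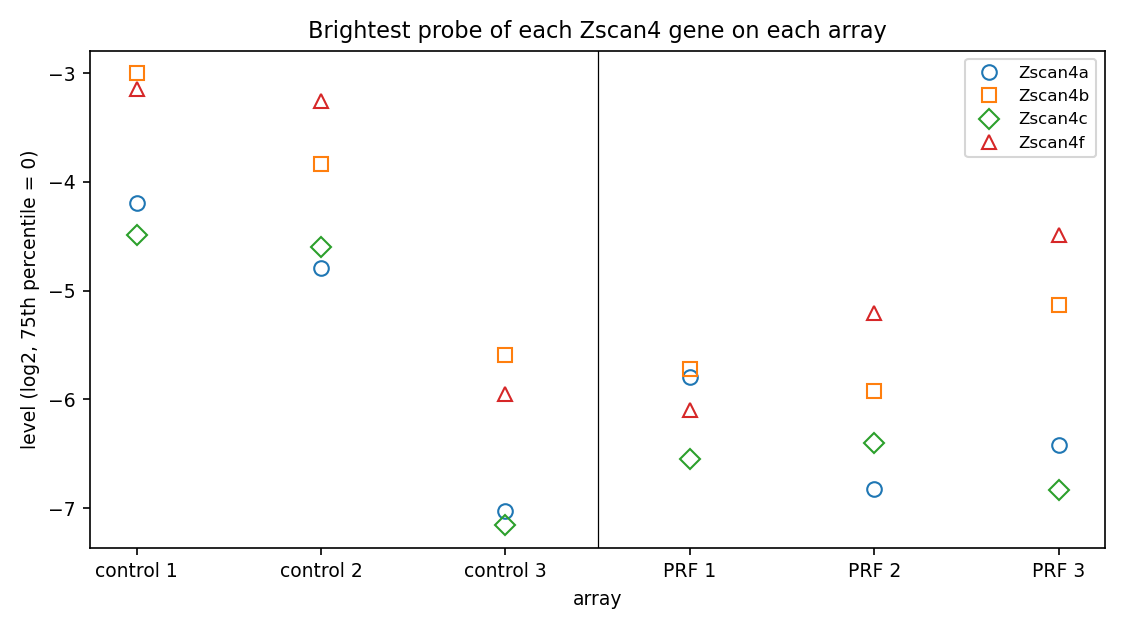
Level of the brightest probe of each Zscan4 gene (y axis, log2 signal with the array's 75th percentile at 0) on the 3 control and 3 PRF arrays (x axis). All 4 genes are high on controls 1 and 2, and control 3 lies near the PRF arrays; heights are not comparable between genes.

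A list of 24 genes expressed with Zscan4 at the 2-cell stage had 18 genes on the array, of which 4 were tested. Tcstv3 read -2.69, -5.49 and -6.84 in control and -5.65, -6.23 and -4.09 after PRF, Usp17la -4.78, -5.26 and -7.44 and then -5.64, -5.46 and -4.98, and Gm4340 -4.24, -5.52 and -6.54 and then -5.15, -5.75 and -4.88. In these 3, picked after their values were seen, control 3 was the lowest array. Of the 4 tested genes, 3 were called higher and none lower, with the same counts, 3 and 0, at limma's unadjusted p under 0.05. At that threshold 20.8% of all tested genes were higher and 20.5% lower. Obox6, an oocyte homeobox gene, was well above background on no control array and on all PRF arrays, at least 15.9-fold higher (limma adjusted p = 7.88e-05). It entered the test through the PRF group alone, so its adjusted p is not independent of the filter. Dppa2, which activates 2-cell genes, rose by 2.76 ± 0.36 (adjusted p = 0.00278) and Zfp352 by 0.39 ± 0.08 (0.0163). Zfp352 lost its call without control 1, control 3 or PRF 2 (0.0533 to 0.0543) and without scaling (0.107). No array had the partner gene Dppa4 well above background.

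Genes of both families that carry other names were counted beside the members. For comparison, 16.3% of all tested genes were called higher and 13.5% lower. By limma's unadjusted p under 0.05 these shares were 20.8% and 20.5%. Of 8 further BTB zinc finger genes, 5 were called higher and 1 lower, with a median change of 0.36. Their counts by unadjusted p were also 5 and 1. Bcl6, the repressor of germinal centre B cells, read 2.67, 2.81 and 2.64 in control and 3.25, 3.35 and 3.18 after PRF, without overlap (0.56 ± 0.08, limma adjusted p = 0.00382). Its paralogue Bcl6b read -3.75, -4.07 and -3.79 and then -1.59, -2.20 and -1.98, a rise of 1.95 ± 0.17 (adjusted p = 0.000631). The tumour suppressor Hic1 rose by 0.87 ± 0.13 and Hic2 by 0.41 ± 0.08, the latter not called without scaling (adjusted p = 0.107). Of 13 tested SCAN genes with other names, 1 was higher and 6 were lower, with a median of -0.28. By unadjusted p their counts were 1 and 8. Zfp446 rose by 0.55 ± 0.07, and Zfp449 (-0.69 ± 0.12), Zfp213 (-0.64 ± 0.11) and Mzf1 (-0.61 ± 0.08), a factor of myeloid cells, were among the falls.

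Partners of these proteins were mostly not called. Of 21 corepressors and partners of BTB factors, none was higher and 3 were lower: the histone deacetylase gene Hdac7 (-0.43 ± 0.11), the scaffold gene Sin3a (-0.47 ± 0.12) and Myc (-0.36 ± 0.08), with a list median of -0.04. At an unadjusted p under 0.05 in limma, 0 were higher and 4 lower, where 20.8% of all tested genes were higher and 20.5% lower. By adjusted p the shares of all tested genes were 16.3% and 13.5%. Ncor1, Bcor and Cul3 were not called. Of 14 corepressors of KRAB zinc finger proteins, none was higher and 3 were lower, with a median of -0.06 (0 and 4 at an unadjusted p under 0.05 in limma). The DNA methyltransferase gene Dnmt3b read -0.58, -0.55 and -0.34 in control and -1.51, -1.54 and -1.34 after PRF, a fall of 0.97 (SE 0.10, limma adjusted p = 0.000937) with no overlap. Setdb1, the H3K9 methyltransferase, and its cofactor Atf7ip gave -0.39 ± 0.09 and -0.51 ± 0.11, while Trim28 was not called (-0.05 ± 0.07). Leaving out single arrays ended the calls of Setdb1, Atf7ip and Sin3a (control 2, control 3, PRF 1 or PRF 2), of Hdac7 (control 1, 2 or 3 or PRF 2) and of Myc (PRF 2), with adjusted p between 0.0501 and 0.0909. Dnmt3b was called in all 6 such fits.

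Genes described as targets of members, or listed beside such targets, were counted as well. Of all tested genes, 16.3% were called higher and 13.5% lower. By limma's unadjusted p under 0.05 those shares were 20.8% and 20.5%. Of 13 tested lysosome and autophagy genes described under Zkscan3, 1 was higher and none lower, with a median of 0.02 (2 and 1 at an unadjusted p under 0.05 in limma). That gene was the lysosomal protease gene Ctsd (0.24 ± 0.07, limma adjusted p = 0.0377), whose call was lost when any one array was left out (0.0549 to 0.118). Of 8 cell cycle inhibitors and p53 pathway genes listed for Zbtb17 and Zbtb4, 3 were higher and 1 was lower, with a median of 0.19. The list is not limited to described targets of these factors. Mdm2, the ubiquitin ligase of p53, read 4.45, 4.37 and 4.52 in control and 5.08, 5.16 and 4.98 after PRF, a rise of 0.63 ± 0.08 (adjusted p = 0.00232). Cdkn1a, or p21, rose by 0.41 ± 0.09 (adjusted p = 0.02), and its call held only without PRF 1 (0.0502 to 0.0648 without each other array, and 0.088 without scaling). Cdkn1c was well above background only after PRF, at least 2.54-fold higher (adjusted p = 8.21e-05). It entered the test through the PRF group alone, so its adjusted p is not independent of the filter either. Cdkn2c fell by 0.29 (SE 0.08, adjusted p = 0.0449) and kept its call only without PRF 3 (0.0834 to 0.133 otherwise).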

How the data were processed

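RNA of 3 control and 3 PRF samples was measured on one-colour Agilent arrays. Per the file headers, the deposited scanner files come from Agilent Feature Extraction 10.7.3.1. They give each spot's background-corrected intensity, median signal and local background, with quality flags. The series table of the authors is linear intensity too and equalled the processed signal for 100% of probes (relative tolerance 0.0001). No normalization between arrays was found in these files.

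Outlier-flagged spots were left out, spots of a probe were averaged as log2 values computed from the deposited intensities, and each array's 75th percentile was subtracted. Probes were named by matching accessions to RefSeq symbols (32994 of 56605 probes). limma 3.58.1 in R 4.3.3 (lmFit, eBayes) compared the groups over 34838 probes, with Benjamini-Hochberg adjustment and a threshold of 0.05. The fit was tested on simulated data. A gene was represented by its tested probe with the highest mean. "At least" folds set the bright group's mean against the lowest signal well above background. Figures were drawn with matplotlib 3.10.9.

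Genes named were the called members whose groups did not overlap (up to 12 rises and 12 falls per family), members with a probe called the other way, members fixed by role, and up to 4 genes of smallest p in each other list. Members and lists were chosen with earlier results of these data known. Precision is limited by 3 arrays per group. Alternatives were other scalings, background correction, filters, probe rules, slide row, replicate block and leaving out each array. Protein sequence features were not analysed here, and 1 gene of a partner list is not reported by name.

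Samples were not treated as paired by replicate number. Deviations from the group means correlated at 0.15, -0.08 and 0.05 for replicates 1, 2 and 3, which cannot exclude a pairing. Control and PRF arrays of the same number lay in the same column of the slide, so pairing and column cannot be told apart.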

Additional observations from a re-analysis of the deposited data

How the results depend on the processing

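Precision rested on 3 arrays per group, and genes near background, the Zscan4 copies above all, had the widest spread. BTB counts (9 higher, 8 lower) became 5 higher without scaling, 3 lower with no filter, 5 lower with slide row as a block, 2 and 1 within row 1, 0 and 0 within row 2, and 5 and 2 at an unadjusted p under 0.05 with at least 1.5-fold. SCAN counts (4 higher, 9 lower) became 2 and 1 within row 1, 0 and 0 within row 2, and 3 lower at that plain threshold. Probes over the whole array (6415 higher, 4418 lower) became 4096 higher without scaling, 7309 lower after quantile normalization, 2805 lower with no filter, 2672 and 537 within row 1, 161 and 1 within row 2, and 1566 lower at the plain threshold. The no-filter fit tested more probes, and the within-row fits used 3 arrays each; the cause of the other changes was not tested. Without scaling the medians were -0.28 (BTB) and -0.41 (SCAN). Leaving out each array in turn gave 8 to 9 BTB rises, 1 to 9 BTB falls, 4 to 5 SCAN rises and 6 to 12 SCAN falls. It gave BTB medians of -0.15 to -0.093 and SCAN medians of -0.39 to -0.23, and 4818 to 6499 higher and 2427 to 4429 lower probes. Leaving out Zbtb8os and Zbtb11os1, or the Zscan4 genes (both chosen after seeing the data), changed no count.

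The main fit did not pair the samples by replicate number. With the replicate block, 9 BTB genes were higher and 7 lower, and 4 SCAN genes were higher and 8 lower. In that fit 2219 of all 15069 tested genes were higher and 1657 lower (25.7% called).

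Of the 60 tested members, 16 changed direction in at least 1 alternative. Among them Zscan29 was the only called one, at -0.147 as the mean of its probes. The values that follow are for the members named by the rule. Without scaling they were Zbtb17 (-0.0946), Zbtb18 (-0.0492), Zbtb20 (-0.0949), Zkscan1 (-0.0534) and Zscan10 (-0.0836). On the median scale they were Zbtb17 (-0.00773) and Zbtb20 (-0.00797), and after quantile normalization Zscan10 (-0.271). With the mean of probes they were Zbtb33 (0.0885) and Zkscan1 (-0.188, then called lower). Within row 1 they were Zbtb1 (0.0549), Zkscan1 (-0.0634), Zkscan17 (0.00147) and Zscan10 (-0.00566), and within row 2 Zbtb20 (-0.0989). Leaving out each array in turn gave -0.00116 to 0.113 for Zbtb17, -0.139 to 0.00855 for Zbtb33, -0.285 to 0.00269 for Zbtb46 and -0.0348 to 0.151 for Zscan10. Counts in the other lists ran from 0 to their highest value over the alternatives: 5 and 1 for further BTB genes, 1 and 10 for further SCAN genes, 1 and 5 for BTB partners, 0 and 4 for KRAB corepressors, 4 and 0 for 2-cell genes, 2 and 1 for lysosome genes, and 3 and 1 for cell cycle inhibitors, higher and lower in turn.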

Other observations

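Besides Zbtb34 and Zbtb43, which both rose, other members lie near each other on a chromosome. On chromosome 5, Zkscan14, Zkscan5 and Zscan25 lie within 4 protein-coding genes. Zkscan5 rose by 1.23 and Zfp655 beside it by 0.54, while Zkscan14 (-0.15) and Zscan25 (0.27) were not called. On chromosome 2, Zbtb6 rose by 0.39 and its neighbour Zbtb26 was not called (-0.16). On chromosome 12, Zbtb25 fell by 0.30 and its neighbour Zbtb1 was not called. On chromosome 7, Zscan22 (-0.69) and Zbtb45 (-0.49) fell in a stretch of 11 protein-coding genes that also held Zfp446 (0.55) and the fatty acid transporter family gene Slc27a5 (2.49), both of which rose. Of the other genes of that stretch, Zfp128 (-0.76), Zfp324 (-0.63) and Zfp329 (-0.46) fell and Rnf225 rose (2.48). The genes between members were chosen by position.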
